A study of Homo sapiens with 66 samples.

Results

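The inhibitor of apoptosis protein (IAP) genes BIRC2, BIRC3, BIRC5, BIRC6 and XIAP, together with DIABLO, which encodes a natural IAP antagonist, were followed through 11 acute myeloid leukemia (AML) cell lines before and after etoposide. The 6 genes were chosen by symbol from the 57992 genes of the count files. All 66 libraries entered, namely 3 untreated and 3 etoposide libraries for each of THP-1, OCI-AML3, OCI-AML2, NOMO-1, NB-4, MV-4-11, MONO-MAC-6, MOLM-13, KASUMI-1, HL-60 and F-36P. Untreated cells received medium, and etoposide, a topoisomerase II poison that leaves DNA strand breaks, was given for 24 h at the IC50 of the respective line, the concentration at the midpoint of its viability curve. The dose therefore differed between the lines, and each line carries the genome of a single leukemia. The lines were kept in serum-containing media that the study lists line by line. F-36P was the line grown with the cytokine GM-CSF, and MONO-MAC-6 the line grown with insulin, pyruvate and non-essential amino acids. Cells of 3 wells were pooled before RNA isolation. The methods call experiments biological replicates unless otherwise specified, without describing the cultures behind the libraries, and the p-values measure the spread between these libraries. The study discarded the etoposide libraries of OCI-AML2 after quality control of the reads, and OCI-AML2 was therefore kept out of all counts over etoposide-treated lines.

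IAP proteins share a zinc-binding fold, the BIR domain, and several also carry a RING domain that attaches ubiquitin to other proteins. XIAP binds and blocks caspases directly, whereas the products of BIRC2 (cIAP1) and BIRC3 (cIAP2) ubiquitinate proteins of tumor necrosis factor (TNF) receptor complexes and thereby steer NF-kB signaling. BIRC6 is a giant ubiquitin ligase that restrains caspases, BIRC5 (survivin) is a subunit of the chromosomal passenger complex that acts in mitosis, and DIABLO (Smac) leaves mitochondria during apoptosis and displaces caspases from IAP proteins.

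BIRC3 (ENSG00000023445.13, chr11:102317484-102339403) and BIRC2 (ENSG00000110330.8, chr11:102347211-102378670) are neighbors on the plus strand of chromosome 11, separated by 7807 bases. BIRC5 (ENSG00000089685.14) lies at chr17:78214186-78225636, BIRC6 (ENSG00000115760.13) at chr2:32357023-32619571 and XIAP (ENSG00000101966.12) at chrX:123859712-123913972, all on the plus strand, and DIABLO (ENSG00000184047.15) lies on the minus strand at chr12:122207663-122227456 (gene bounds of GENCODE 44 on GRCh38). The start regions of the neighbors BIRC3 and BIRC2 are shown because etoposide changed the counts of BIRC3 by larger factors than those of BIRC2. Both are RefSeq windows of GRCh38.p14, plus strand, from 250 bases before to 50 bases after a transcript start, chr11:102317234-102317533 for BIRC3 and chr11:102346964-102347263 for BIRC2. Capitals mark the only match to a narrow form of the NF-kB motif, searched on both strands. Looser forms of the NF-kB motif were not searched and may have further matches in these windows.
BIRC3: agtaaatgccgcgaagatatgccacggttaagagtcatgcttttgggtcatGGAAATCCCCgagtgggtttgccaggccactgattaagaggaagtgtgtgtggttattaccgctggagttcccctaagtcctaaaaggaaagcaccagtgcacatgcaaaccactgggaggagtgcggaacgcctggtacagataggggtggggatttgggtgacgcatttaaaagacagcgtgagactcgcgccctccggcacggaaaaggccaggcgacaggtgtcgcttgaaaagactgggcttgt
BIRC2: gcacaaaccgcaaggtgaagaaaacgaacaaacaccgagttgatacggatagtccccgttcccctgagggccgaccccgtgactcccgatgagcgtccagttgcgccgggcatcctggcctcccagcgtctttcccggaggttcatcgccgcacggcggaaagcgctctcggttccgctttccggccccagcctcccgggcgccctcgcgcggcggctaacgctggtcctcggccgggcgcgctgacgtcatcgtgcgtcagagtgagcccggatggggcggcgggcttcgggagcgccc
The match in the BIRC3 window reads on the minus strand and begins 199 bases before the start. No match to this narrow form lay in the BIRC2 windows or in the windows held for BIRC6, XIAP and DIABLO. Of 35116 promoter windows of this length, 671 (1.91%) held the narrow form. The letters TTTGAA and TTCGAA (cell cycle homology region) and GCGGGAA (E2F) had no match in the windows of these 5 genes, compared with 15.2%, 1.45% and 6.55% of all windows. No window was held for BIRC5, so BIRC5 was not searched for any of these motifs. These matches describe letters only.

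The libraries held 17997404 to 24101670 reads on genes (median 20241014). BIRC5, BIRC6, BIRC2 and XIAP were counted with at least 426 reads in every library, DIABLO with 33 to 143, and BIRC3 with 0 to 2316 reads, 2 libraries being at 0. DIABLO shared 16.4% of its exon bases, and 41.6% of its coding bases, with another gene of the same strand to which the files assign no reads, so its level may be understated by an amount that was not measured. Of 6 myeloid markers, all reached 1 CPM, a read count scaled to library size, in 10 lines and 4 did so in F-36P. All 4 erythroid markers exceeded 1 CPM in F-36P (877 CPM summed), whereas their sum was at most 14.4 CPM elsewhere.

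Before treatment, BIRC5 was the most abundant member per exon length in all 11 lines, and BIRC3 varied by far the most between lines. Mean BIRC5 levels lay between 31.9 and 72.8 RPKM, reads scaled to exon length and library size. BIRC2 (6.66 to 13.3 RPKM) and BIRC6 (4.25 to 16.4 RPKM) followed, with BIRC6 above BIRC2 in HL-60, KASUMI-1, MONO-MAC-6, MV-4-11 and OCI-AML3 and below it in the other 6 lines. XIAP came next in every line at 3.22 to 6.00 RPKM. DIABLO (0.359 to 0.893 RPKM) and BIRC3 (0.00472 to 0.949 RPKM) were lowest, and BIRC3 exceeded DIABLO only in HL-60 and MONO-MAC-6.

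**Figure D1:**
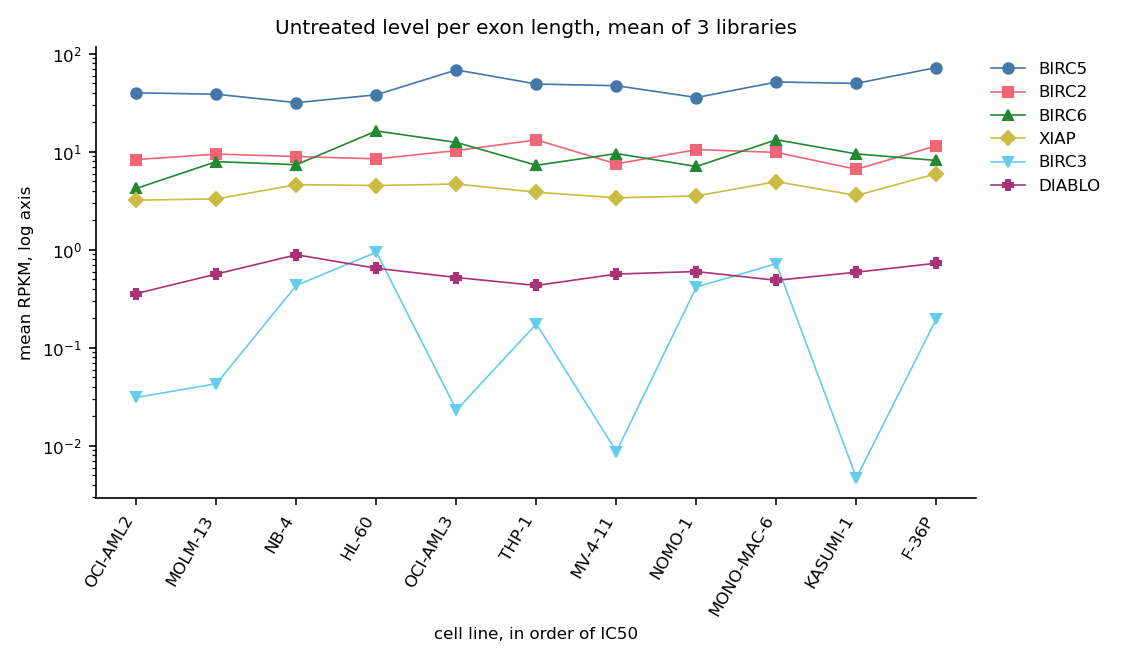
Mean level of the 6 genes per exon length (RPKM, log axis) in the untreated libraries of 11 AML cell lines, ordered by IC50, each point the mean of 3 libraries. BIRC5 is the top line throughout at 31.9 to 72.8 RPKM, and BIRC3 spans from 0.00472 RPKM in KASUMI-1 to 0.949 RPKM in HL-60.

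All 6 genes differed between the untreated lines by the quasi-likelihood F test of edgeR, with adjusted p from 3.19e-19 for BIRC3 to 1.83e-05 for BIRC2, as did 99.4% of the 18130 genes tested. In a bulk library, fewer expressing cells and less RNA per cell cannot be told apart. BIRC3 differed in 45 of the 55 pairs of lines, BIRC5 in 41, XIAP in 36, BIRC6 in 31, DIABLO in 24 and BIRC2 in 21, against 66.8% of all genes pooled over the pairs. The levels below are CPM scaled across the 33 untreated libraries.

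By the steps between neighboring lines in order of level, BIRC3 was divided into 4 levels. HL-60 (7.11 ± 0.484 CPM, SD, n = 3) and MONO-MAC-6 (5.42 ± 0.593 CPM) were highest and did not differ from each other. NB-4 (3.26 ± 0.748 CPM) and NOMO-1 (3.13 ± 0.403 CPM) formed the second level, and F-36P (1.48 ± 0.715 CPM) and THP-1 (1.32 ± 0.232 CPM) the third. The steps from MONO-MAC-6 to NB-4 (adjusted p = 0.00526, edgeR), from NOMO-1 to F-36P (0.000897) and from THP-1 to MOLM-13 (0.000145) passed the test, and no other neighboring lines differed. Below the third level the gene was near the limit of counting, at 0.323 ± 0.228 CPM in MOLM-13, 0.234 ± 0.0828 CPM in OCI-AML2, 0.174 ± 0.175 CPM in OCI-AML3 and 0.0656 ± 0.0755 CPM in MV-4-11. The KASUMI-1 libraries held 1, 0 and 1 reads. Some lines below the third level also differed, though not from their neighbors, since more pairs passed (45) than lie between the 4 levels.

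BIRC2 showed a shallow gradient, from 60.1 ± 2.45 CPM in THP-1 to 30.1 ± 5.81 CPM in KASUMI-1, in which none of the 10 steps between neighboring lines passed the test. XIAP ranged from 57.1 ± 3.39 CPM in F-36P to 30.7 ± 1.89 CPM in OCI-AML2. F-36P stood above MONO-MAC-6 (47.4 ± 2.54 CPM, adjusted p = 0.00563, edgeR), and HL-60 (43.3 ± 2.37 CPM) stood above THP-1 (37.0 ± 3.54 CPM, 0.0202), while the other neighbors did not differ beyond their spread.

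BIRC6 was highest in HL-60 (304 ± 12.2 CPM), and the single step that passed lay at the other end, between NOMO-1 (132 ± 16.5 CPM) and OCI-AML2 (78.8 ± 3.45 CPM, adjusted p = 0.000767, edgeR). The untreated F-36P libraries were widely spread for this gene at 85.2, 143 and 227 CPM. For BIRC5, OCI-AML3 and F-36P were separated from MONO-MAC-6 (198 ± 3.62 CPM) and the rest by a step of 0.41 on the log2 scale (9.48e-05), and MV-4-11 (181 ± 5.77 CPM) stood above OCI-AML2 (153 ± 1.42 CPM) by 0.24 (0.0166). DIABLO ran from 6.22 ± 1.08 CPM in NB-4 to 2.4996 ± 0.130 CPM in OCI-AML2 with no step between neighbors that passed.

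**Figure D2:**
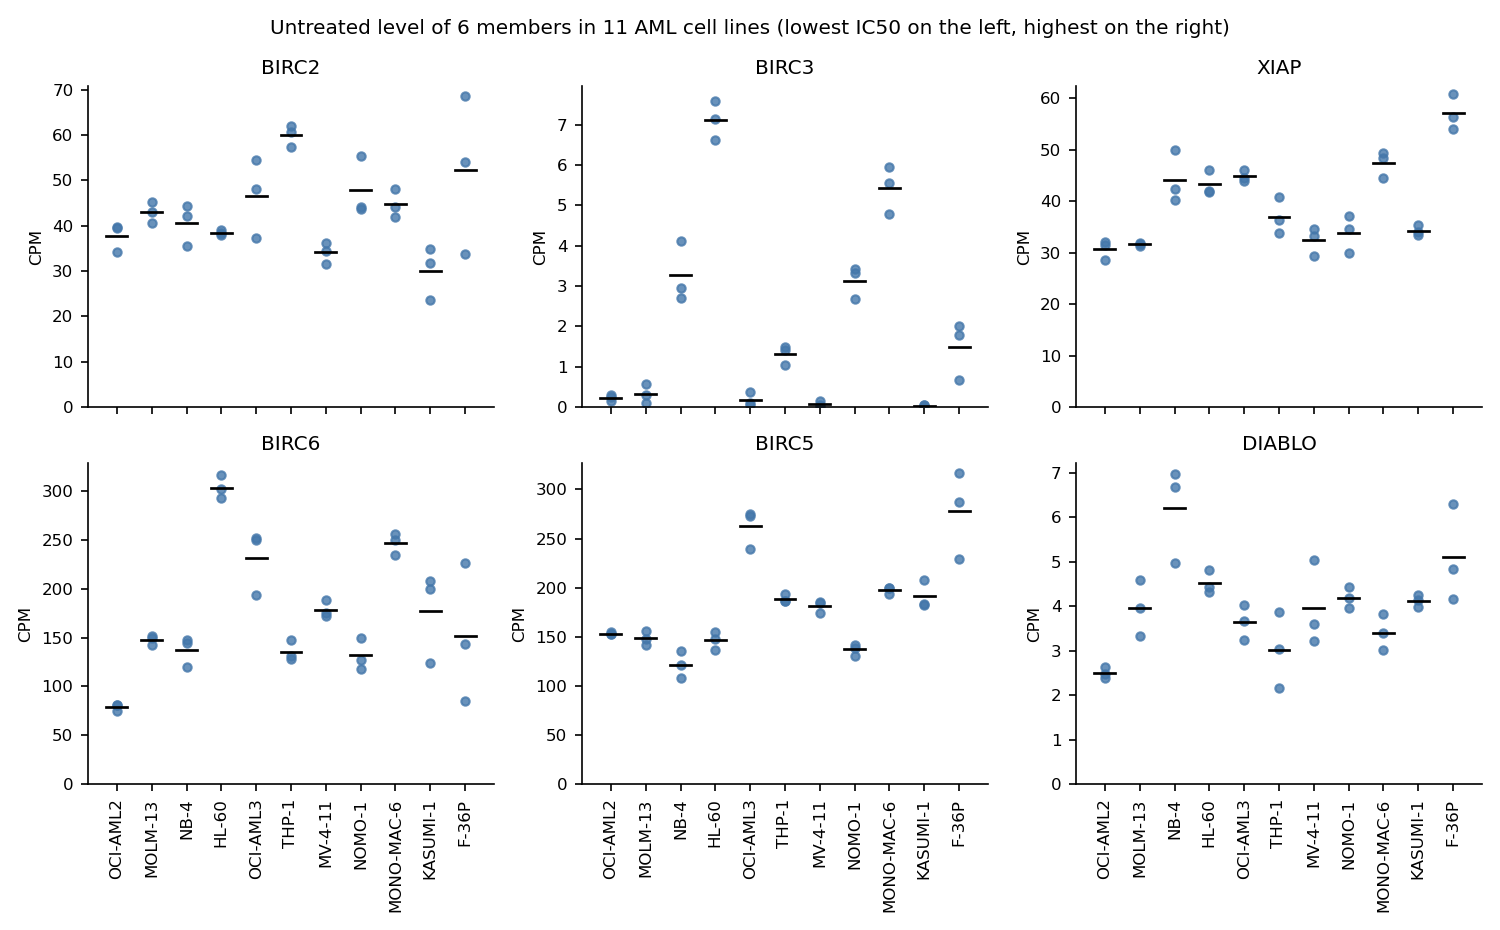
Untreated level (CPM) of each gene in 11 AML cell lines ordered from the lowest IC50 on the left to the highest on the right, with 3 libraries per line as points and their mean as a bar. XIAP and BIRC5 are highest in F-36P at the far right (means of 57.1 and 278 CPM), and BIRC3 is highest in HL-60 at 7.11 CPM.

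The basal levels were then set against the IC50 of the lines as determined by the viability assay of the study. By that assay OCI-AML2 was the most sensitive line, followed by MOLM-13, NB-4 and HL-60. F-36P, whose IC50 lies above the highest concentration tested, was the least sensitive, and KASUMI-1 the next least. Over 11 lines, log2(1 + CPM) was higher at higher log2(1 + IC50 in μM) for BIRC5 (Pearson r = 0.661) and XIAP (r = 0.624, Spearman rho = 0.509). These are descriptions over lines, without a test. The coefficient was 0.307 for DIABLO, 0.135 for BIRC2, 0.0405 for BIRC6 and 0.0249 for BIRC3. Among 13669 genes that averaged 1 CPM or more, 11.7% had an r at least as far from 0 as BIRC5, 14.5% as XIAP, 51.7% as DIABLO, 78.8% as BIRC2, 93.6% as BIRC6 and 96.1% as BIRC3. For XIAP, r was 0.165 over the other 10 lines, and without both F-36P and KASUMI-1 it was 0.441. For BIRC5, r went down to 0.408 without F-36P and 0.393 without both. F-36P was also the line with the erythroid markers, whose part in these relations was not tested. Without F-36P, r was -0.313 for BIRC2, 0.362 for BIRC6 and 0.00585 for DIABLO.

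The second question was which of the genes etoposide changed, and in which lines. BIRC3 was the member that rose most, 4.15-fold to 18.2-fold in 4 lines, leaving aside KASUMI-1, where it had only 2 untreated reads, and its neighbor BIRC2 rose by 2.05-fold at most. XIAP rose slightly in 3 lines, BIRC6 fell in 4, BIRC5 rose in 3 and fell in 4, and DIABLO passed the test in none. Of the 58 pairs of gene and line that passed the filter on low counts, 25 (43.1%) passed at an adjusted p below 0.05 in the quasi-likelihood test of edgeR, 16 higher and 9 lower after etoposide. Pooled over the 10 lines, 52.1% of all genes passed, 27.7% higher and 24.4% lower. Above 2-fold as well, 6 pairs were higher and 0 lower, against 11.1% and 3.96% of all genes. Scaling by library size alone turned the 16 and 9 into 22 higher and 3 lower. Line by line, 32.1% of all genes passed in THP-1, 32.5% in HL-60, 40.1% in OCI-AML3, 52.7% in NOMO-1, 56.2% in MOLM-13, 59.8% in NB-4, 59.9% in F-36P, 60.1% in KASUMI-1, 62.3% in MONO-MAC-6 and 63.9% in MV-4-11. The share of members that passed thus lay within the range of all genes. By line, 4 of 6 members passed in MONO-MAC-6 and KASUMI-1, 3 of 6 in F-36P, HL-60, NB-4 and NOMO-1, 2 of 5 in MV-4-11 and OCI-AML3, 1 of 6 in MOLM-13 and 0 of 6 in THP-1. In THP-1 1 of the 6 members had an unadjusted p below 0.05, and neither DESeq2 nor the exact test of edgeR called any. From here on, CPM values are scaled within the 6 libraries of a line.

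**Figure D3:**
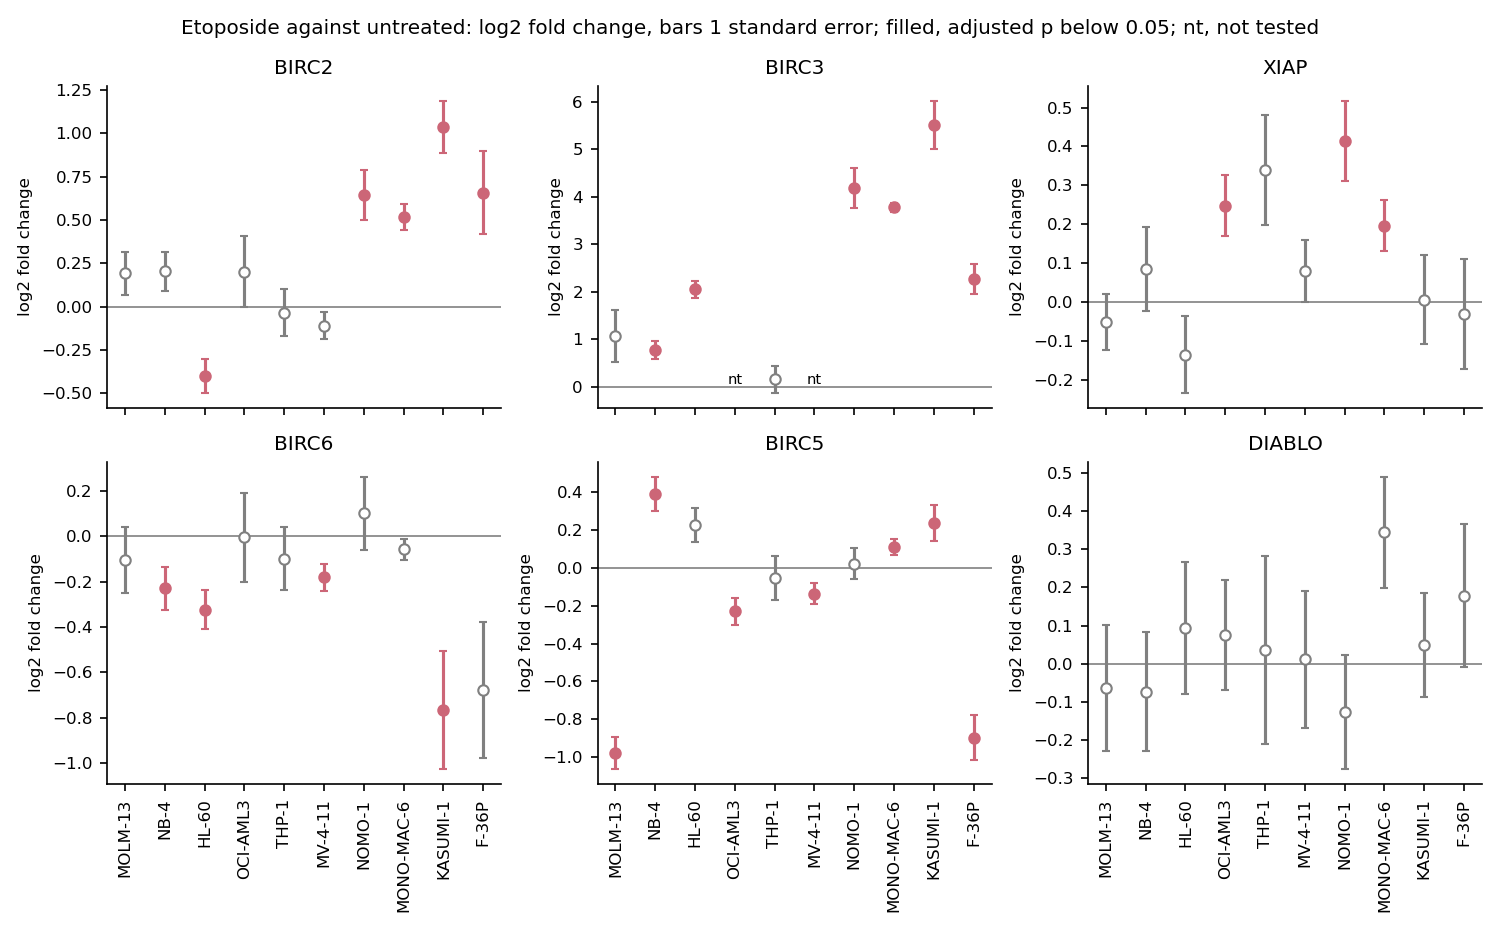
Change after etoposide (log2 fold change, bars 1 standard error) of each gene in 10 AML cell lines ordered by IC50, filled points passing an adjusted p below 0.05 and nt marking lines with too few reads to test. BIRC3 lies at or above 0.16 wherever it was tested and reaches 5.51 in KASUMI-1, where it had 2 untreated reads, whereas DIABLO stays between -0.13 and 0.34 with no filled point.

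BIRC3 passed the filter in 8 lines, in KASUMI-1 through one group only, and rose in 5 of the other 7. In MONO-MAC-6 it went from 5.77, 4.97 and 6.18 CPM to 83.1, 71.2 and 77.6 CPM, a 13.7-fold rise (log2 3.78, SE 0.0942, adjusted p = 1e-10). In NOMO-1 the untreated libraries held 3.70, 2.98 and 3.84 CPM and the etoposide libraries 35.0, 115 and 41.2 CPM. The groups lay far apart in both lines, and in NOMO-1 the second etoposide library exceeded the others, the log2 change being 4.19 (SE 0.423, adjusted p = 8.18e-06, edgeR) with it and 3.42 (2.2e-11) without it. In HL-60, the line with the highest basal level, 7.10, 8.11 and 7.65 CPM became 30.3, 23.8 and 40.7 CPM (4.15-fold, SE 0.176 on the log2 scale, 4.84e-06). F-36P went from 0.677, 2.15 and 1.95 to 8.49, 5.85 and 8.69 CPM, a 4.82-fold rise (SE 0.325, 0.000191).

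KASUMI-1 passed the filter only through its etoposide libraries. Its 3 untreated libraries held 2 BIRC3 reads in all and the 3 etoposide libraries 123, a ratio per total reads of 60.2 with an exact 95% Poisson interval of 16.3 to 503 that covers counting error only. Since the filter admitted the gene there because of its high group, its test (log2 5.51 in the fit) is no support for a rise, although it stands among the counts of pairs that passed. Even after this change BIRC3 reached only 1.86 ± 0.423 CPM (SD, n = 3), below the untreated level of HL-60. NB-4 showed the smallest rise, from 3.10, 2.84 and 4.35 to 6.40, 5.04 and 6.15 CPM (1.71-fold, 0.00225). These groups did not overlap, but the gap was small. All genes with an adjusted p below 0.05 and a rise above 2-fold made up 24.3% in F-36P, 14.6% in KASUMI-1, 8.53% in MONO-MAC-6, 8.34% in NOMO-1 and 5.34% in HL-60, the lines in which BIRC3 met both criteria.

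In the remaining lines BIRC3 was low. MOLM-13 libraries held 0.0982, 0.297 and 0.536 CPM untreated and 0.995, 0.352 and 0.666 CPM with etoposide, overlapping groups that missed the test (log2 1.08, SE 0.541, adjusted p = 0.115, edgeR), although the test was passed without etoposide library 2 (log2 1.40, 0.0457). THP-1 gave 1.52, 1.08 and 1.45 CPM and 1.60, 0.986 and 1.92 CPM, also overlapping (log2 0.16, 0.704). MV-4-11 had 4 untreated and 31 etoposide reads (ratio 6.42, 2.27 to 25.04) and OCI-AML3 11 and 29 (ratio 2.497, 1.21 to 5.54), too few for the fit. The mean was higher after etoposide in all 10 lines, and the libraries of the groups did not overlap in 7. The calls of BIRC3 were kept under every alternative in which the gene was tested, including the removal of any single library.

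BIRC2 rose in KASUMI-1, MONO-MAC-6, NOMO-1 and F-36P and fell in HL-60. KASUMI-1 libraries went from 34.8, 31.9 and 23.3 CPM to 65.9, 53.1 and 66.03 CPM, the only BIRC2 change above 2-fold (2.05-fold, SE 0.151 on the log2 scale, adjusted p = 0.000256). In MONO-MAC-6, 49.96, 43.6 and 46.0 CPM became 70.3, 59.96 and 69.3 CPM (1.43-fold, 9.1e-05), and in NOMO-1, 62.0, 49.3 and 49.0 CPM became 64.7, 97.0 and 88.7 CPM (1.56-fold, 0.00237). Untreated and etoposide libraries were separate in these 3 lines, in NOMO-1 by the gap between 62.0 and 64.7 CPM only. In F-36P the untreated libraries were spread over 34.3, 57.9 and 75.3 CPM below 101, 84.5 and 78.8 CPM with etoposide (1.58-fold, 0.0367), and this call was lost without untreated library 2 (0.0825) or etoposide library 1 (0.126), 2 (0.0746) or 3 (0.0542).

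HL-60 was the only line in which both neighbors passed the test and moved in opposite directions. There BIRC2 fell from 41.8, 41.0 and 40.7 CPM to 32.2, 29.3 and 32.1 CPM (log2 -0.40, SE 0.0973, adjusted p = 0.00664) while BIRC3 rose 4.15-fold. In NB-4 BIRC2 libraries held 44.1, 37.2 and 46.9 CPM untreated and 55.6, 45.1 and 46.9 CPM with etoposide (log2 0.20, 0.130). The test was passed when libraries of the same number were paired as a block (0.0346). Same-numbered libraries deviated together in this line (r = 0.381, 0.388 and 0.196), but the labels do not state a pairing. The MOLM-13 (0.19), OCI-AML3 (0.20), THP-1 (-0.03) and MV-4-11 (-0.11) changes missed the test, with 1 library each deciding that in MOLM-13 (0.34 without etoposide library 2, 0.00737), OCI-AML3 (0.40 without etoposide library 3, 0.0307) and MV-4-11 (-0.17 without etoposide library 1, 0.0387).

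Relative to BIRC2 per exon length, BIRC3 shifted by the most percentage points in MONO-MAC-6, from 7.32% ± 0.689 to 70.2% ± 2.21 of the BIRC2 level (SD, n = 3). HL-60 went from 11.2% ± 0.857 to 60.8% ± 14.1 and NOMO-1 from 3.99% ± 0.632 to 44.1% ± 24.0. In F-36P the share rose from 1.66% to 5.31%, in NB-4 from 4.82% to 7.21% and in KASUMI-1 from 0.0766% to 1.81%. THP-1 stayed at 1.33% and 1.48%, within the spread of its libraries. Per exon length, BIRC3 thus remained below its neighbor in every line and condition. In CPM, which is not scaled to exon length, BIRC3 exceeded BIRC2 in every etoposide library of MONO-MAC-6. It also did so in a single etoposide library each of NOMO-1 and HL-60.

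**Figure D4:**
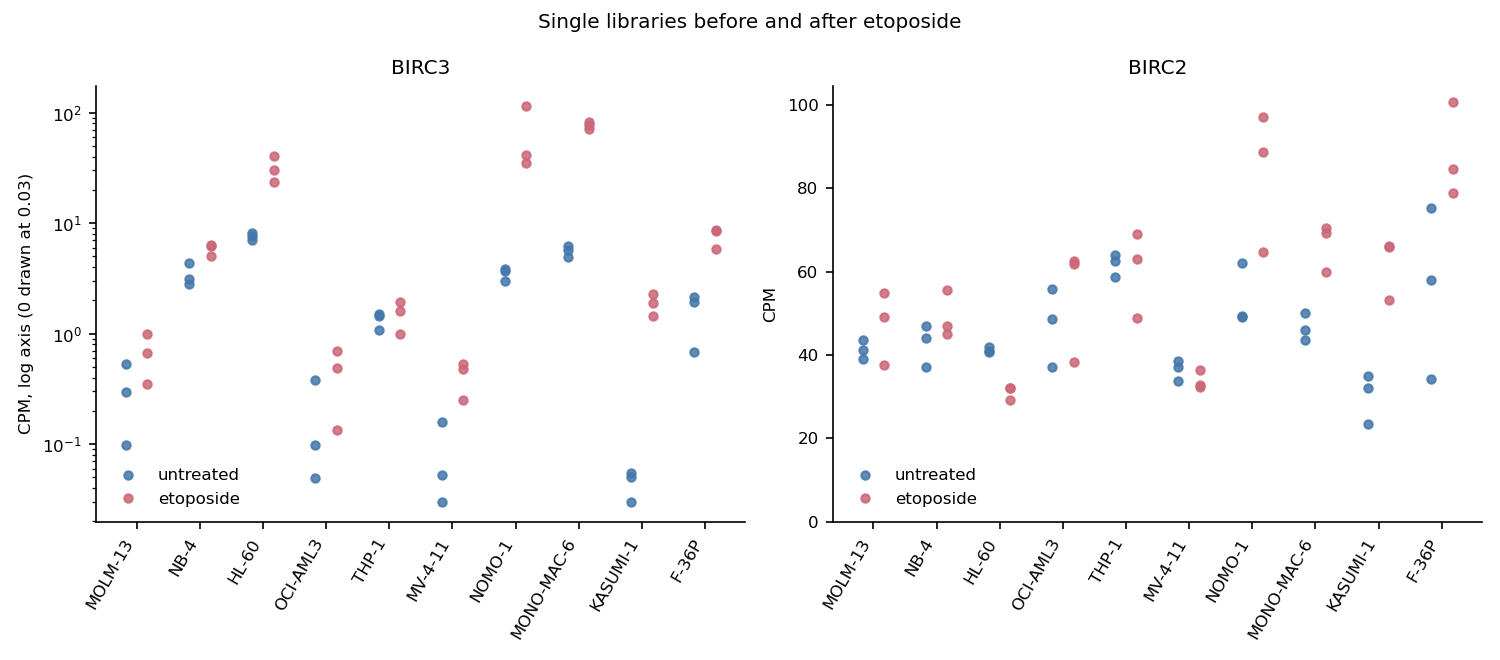
BIRC3 (CPM, log axis, 0 drawn at 0.03) and BIRC2 (CPM, linear axis) in each untreated and etoposide library of 10 AML cell lines ordered by IC50. The etoposide points of BIRC3 lie between 71.2 and 83.1 CPM in MONO-MAC-6, where the untreated points lie between 4.97 and 6.18 CPM, while BIRC2 changes by 2.05-fold at most.

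XIAP rose in NOMO-1, OCI-AML3 and MONO-MAC-6 and fell in no line. NOMO-1 libraries went from 41.4, 38.5 and 33.7 CPM to 47.3, 55.1 and 48.9 CPM (1.33-fold, SE 0.104 on the log2 scale, adjusted p = 0.00506, edgeR). In OCI-AML3, 44.8, 43.6 and 47.2 CPM became 58.1, 51.6 and 51.3 CPM (1.19-fold, 0.0353), and in MONO-MAC-6, 50.3, 46.4 and 51.3 CPM became 59.1, 52.9 and 57.4 CPM (1.15-fold, 0.0198). The groups did not overlap in these 3 lines. The OCI-AML3 call was lost without any single library other than etoposide library 3 (adjusted p up to 0.134), and the MONO-MAC-6 call without untreated library 2 (0.0963) or etoposide library 1 (0.0790) or 3 (0.0744). In THP-1 the change of 0.34 (0.0760) passed without etoposide library 2 (0.49, 0.000821).

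BIRC6 fell in HL-60, KASUMI-1, MV-4-11 and NB-4, and no rise passed with all libraries. HL-60 libraries went from 340, 323 and 314 CPM to 280, 252 and 250 CPM (log2 -0.32, SE 0.0852, adjusted p = 0.0108), and MV-4-11 libraries from 200, 188 and 185 CPM to 183, 159 and 163 CPM (-0.18, 0.0125). The groups were separate in both, narrowly so in MV-4-11. In KASUMI-1 they overlapped, with 209, 200 and 122 CPM untreated and 130, 64.2 and 118 CPM with etoposide (-0.77, SE 0.262, 0.0287), and in NB-4 as well, with 152, 125 and 157 CPM and 128, 119 and 122 CPM (-0.23, 0.0474). These calls depended on single libraries. HL-60 lost its call without untreated library 1 (0.0637), MV-4-11 without untreated library 1 (0.0672) or etoposide library 2 (0.0695), KASUMI-1 without untreated library 1 (0.0778) or 2 (0.0818), and NB-4 without any library other than untreated library 2 (0.0509 to 0.132). In F-36P 86.2, 153 and 248.7 CPM stood against 113, 102 and 89.9 CPM (-0.68, 0.0756), and the fall passed without untreated library 1 (-1.02, 0.00022). In NOMO-1, on the other hand, 168, 141 and 133 CPM stood against 111, 180 and 183 CPM (0.10, 0.616), and a rise passed without etoposide library 1 (0.26, 0.0224). In OCI-AML3 the change was near 0 (-0.0049, 0.987), and a rise passed when both libraries numbered 3 were left out (0.25, 0.0231).

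BIRC5 split the lines. It fell in MOLM-13 from 149, 142 and 136 CPM to 65.5, 79.9 and 70.8 CPM (0.506-fold, log2 -0.98, SE 0.0844, adjusted p = 8.75e-06, edgeR). In F-36P, where it had been highest, it fell from 320, 307 and 252 CPM to 148, 163 and 160 CPM (0.536-fold, -0.90, SE 0.12, 0.000124). In both lines the groups were far apart. NB-4, the line with the lowest basal BIRC5, moved the other way, from 127, 142 and 114 CPM to 166, 167 and 170 CPM (1.31-fold, SE 0.0905, 0.0016). These 3 calls held without any single library.

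Smaller BIRC5 changes passed in 4 further lines. It was higher in KASUMI-1 (191 ± 12.8 to 225 ± 23.7 CPM, log2 0.24, adjusted p = 0.04999) and MONO-MAC-6 (206 ± 3.81 to 222 ± 3.98 CPM, 0.11, 0.0357), and lower in OCI-AML3 (264 ± 17.3 to 226 ± 10.9 CPM, -0.23, 0.0305) and MV-4-11 (194 ± 7.08 to 176 ± 8.81 CPM, -0.14, 0.0381). In the last of these the libraries of both groups met at 186 CPM. KASUMI-1 lost the call without untreated library 1 or 2 or etoposide library 2 or 3 (adjusted p up to 0.201), MONO-MAC-6 without any library other than untreated library 1 (up to 0.192), OCI-AML3 without untreated library 1 or 2 or etoposide library 1 or 2 (up to 0.124), and MV-4-11 without untreated library 2 or 3 or etoposide library 1 or 2 (up to 0.128). HL-60 (0.23, 0.0696) missed the test but passed without etoposide library 1 (0.0442), and NOMO-1 (0.02) and THP-1 (-0.05) missed it.

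As a mitotic gene, BIRC5 was set beside 12 other genes of mitosis and its 3 partners in the chromosomal passenger complex, AURKB, INCENP and CDCA8. In MOLM-13 all 12 mitotic genes fell (median log2 -1.29), where 28.1% of all genes fell, and in F-36P 8 of 12 fell (-0.89), where 25% of all genes did. KASUMI-1, in contrast, had 8 of 12 higher and none lower (0.42), beside 31.5% of all genes higher. Over 10 lines the BIRC5 change and the median of the list, measured in the same libraries, had r = 0.828 and rho = 0.806, and r = 0.755 without MOLM-13 and KASUMI-1. The relation rested largely on MOLM-13 and F-36P, which stood apart from the other lines, since over the remaining 8 lines r was 0.475 and rho 0.619. NB-4 departed from this order, since BIRC5 rose by 0.39 there while 7 of the 12 mitotic genes fell and 2 rose (median -0.36), beside 28.7% and 31% of all genes. In HL-60 the signs differed as well, with a BIRC5 change of 0.23 that missed the test. There 5 of the 12 mitotic genes fell and 0 rose (median -0.26), beside 15% and 17.5% of all genes. For the 3 passenger complex partners r was 0.723, and 0.499 without MOLM-13 and KASUMI-1.

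**Figure D5:**
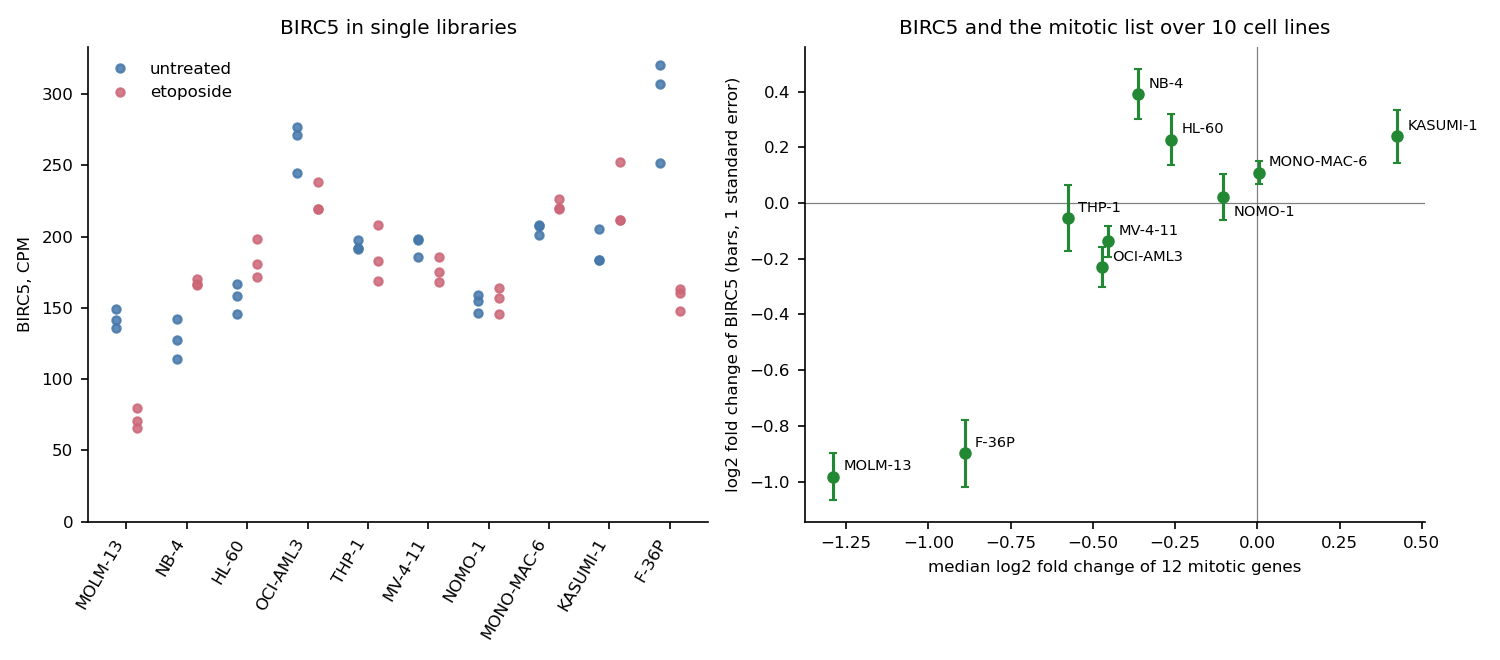
Left, BIRC5 (CPM) in each untreated and etoposide library of 10 AML cell lines ordered by IC50. Right, the log2 fold change of BIRC5 (bars, 1 standard error) against the median log2 fold change of 12 mitotic genes, 1 point per line, with MOLM-13 lowest on both axes (-0.98 and -1.29) and NB-4 higher for BIRC5 (0.39) than its list median (-0.36).

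DIABLO did not pass the test in any of 10 lines by the quasi-likelihood test of edgeR. Its log2 changes lay between -0.13 in NOMO-1 and 0.34 in MONO-MAC-6, and the groups overlapped everywhere. In MONO-MAC-6, 3.52, 3.98 and 3.14 CPM stood against 5.08, 3.95 and 4.46 CPM (SE 0.146, adjusted p = 0.0580). This was the single line with an unadjusted p below 0.05 (0.0368), DESeq2 called DIABLO in 0 lines and the exact test of edgeR in 1, and the change passed without untreated library 2 (0.0398) or etoposide library 2 (0.0356). The standard errors were 0.137 to 0.246 on the log2 scale, at 33 to 143 reads per library.

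With the 10 lines as replicates, BIRC6 alone among the 5 members tested in every line had a mean change that passed, and this rested on several choices. The mean was -0.23 (log2, SE 0.0869, adjusted p = 0.0411 by limma, lower in 9 of 10 lines), and an exact sign-flip permutation test, two-sided over 1024 sign patterns, gave p = 0.0117. The call was lost without F-36P (-0.18, 0.0905), without the filter on low counts (-0.25, 0.0716) and when the libraries numbered 1 (0.0730) or 3 (0.0895) were left out. BIRC2 had a mean of 0.29 (SE 0.127, 0.0755, higher in 7 of 10), XIAP 0.11 (0.210, 7 of 10), DIABLO 0.05 (0.522, 7 of 10) and BIRC5 -0.13 (0.425, 5 of 10). Among all 10588 genes, 45.9% passed. BIRC3 had too few reads in MV-4-11 and OCI-AML3 for this test. When counts were scaled by library size alone rather than by TMM, the median of all genes moved up by 0.10 to 0.24 in 6 lines, the BIRC6 mean was -0.12 (0.191), and BIRC2 (0.40, 0.0286) and XIAP (0.23, 0.0212) passed.

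The size of the change differed between lines for BIRC5 (adjusted p of the interaction 5.52e-15, edgeR F test over 60 libraries), BIRC3 (5.13e-10) and BIRC2 (2.07e-05), as for 74.5% of the 19974 genes tested. XIAP narrowly missed this test (0.0509) and passed it without F-36P (0.0305), and BIRC6 (0.186) and DIABLO (0.834) missed it. For BIRC3 the fit included KASUMI-1 and the lines in which the gene had too few reads to be tested alone. The BIRC3 interaction without these lines was not tested. Over the 8 lines with a BIRC3 value, the changes of BIRC2 and BIRC3 had r = 0.748 and rho = 0.762. Without HL-60 and KASUMI-1, r was 0.873. KASUMI-1 was included in every relation of BIRC3, although the gene passed the filter there only through its etoposide libraries. The other pairs of members had r between -0.403 and 0.649, the highest for BIRC6 with XIAP over 10 lines (rho = 0.758).

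Levels of BIRC2, BIRC6 and BIRC5 also varied together between libraries of the same group, and so did the share of reads on long genes. As deviations from the group mean over 66 libraries in 22 groups, BIRC2 and BIRC6 had r = 0.907. The library highest in BIRC2 was also highest in BIRC6 in 21 groups. The 22 groups include the etoposide libraries of OCI-AML2 that the study discarded. BIRC5 ran opposite, with r = -0.805 against BIRC2 and -0.801 against BIRC6. The percentage of reads on the 2806 genes with over 10000 exon bases, members left out, lay between 15.0% and 21.1% and followed the same deviations, with r = 0.912 for BIRC6, 0.817 for BIRC2, 0.719 for XIAP, 0.482 for BIRC3, -0.768 for BIRC5 and -0.0375 for DIABLO.

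This share had a lower mean after etoposide in 7 of 10 lines. It was 16.7%, 17.4% and 19.4% in the untreated F-36P libraries in which BIRC6 held 86.2, 153 and 248.7 CPM and BIRC2 34.3, 57.9 and 75.3 CPM. With the share as a covariate, an alternative added after seeing the data, 22 pairs were higher and 8 lower. BIRC6 then kept its fall in KASUMI-1, lost it in HL-60 (adjusted p = 0.0528), MV-4-11 (0.0794) and NB-4 (0.357) and gained it in MONO-MAC-6 (0.00554) and OCI-AML3 (0.0127). BIRC2 gained MOLM-13 (0.00339) and NB-4 (0.00449), BIRC3 gained MOLM-13 (0.0274), and XIAP gained MV-4-11 (0.0487), NB-4 (0.0202) and THP-1 (0.00827). The BIRC5 and DIABLO calls did not change. The source of the share was not tested.

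The wider pathway was described by gene lists, each read against a median of -0.03 over all genes for the mean change over 10 lines, in which 18.4% of genes were higher and 27.6% lower. Among the other IAP genes, BIRC8 had no reads, and BIRC7 (livin) rose in both lines that could be tested, F-36P (log2 2.96) and NOMO-1 (1.41), from 1.73 and 0.946 CPM. NAIP, a sensor of bacterial proteins, rose in 2 of 3 lines tested, MOLM-13 (1.62) and MV-4-11 (1.45), where its untreated counts lay at the edge of the filter. Of the IAP antagonists, XAF1 was higher on average (1.11, adjusted p = 0.0291, limma) and passed upward in 7 of 10 lines and downward in 1, while the mitochondrial protease HTRA2 was lower in 5 lines and higher in 2 (mean -0.24, 0.0933). SEPTIN4 rose in MONO-MAC-6 (0.97) and missed the test in THP-1 (0.24), and in F-36P and KASUMI-1 it passed the filter only through the etoposide libraries.

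Of the genes of the apoptosome, the complex that activates caspases, APAF1 rose in 5 of 10 lines (mean 0.35, adjusted p = 0.0390, limma) and the initiator caspase gene CASP9 had a higher mean (0.47, 0.00167), whereas the cytochrome c gene CYCS fell in 6 lines and rose in 1 (-0.41, 0.0116). CASP9, like RIPK1, TRAF1 and MAP3K14 below, is named after its value was seen. Of 7 partners of cIAP1 and cIAP2, 4 were higher and none lower. The deubiquitinase gene CYLD rose in all 10 lines (1.04, 0.000453), and RIPK1 (0.50, 0.00143), TRAF1 (1.23, 0.00839) and MAP3K14 (0.37, 0.0215) also had higher means, while TRAF2 (-0.14), TRAF3 (0.04) and TNFRSF1A (-0.23) missed the test.

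NF-kB targets, among which BIRC3 is usually counted, had 6 of 8 tested genes higher and none lower, with a median of 1.12. CXCL8 rose in all 10 lines (mean 3.19, adjusted p = 0.00196, limma), NFKBIA rose in 7 and fell in 2 (0.68, 0.0311), and NFKB1 missed the test (0.10). By line, the list median was highest in HL-60 (2.47), followed by KASUMI-1 (1.74) and MONO-MAC-6 (1.73), and it lay near 0 in NB-4 (-0.01) and OCI-AML3 (-0.13). Over the 8 lines with a BIRC3 value the changes of BIRC3 and of this list had r = 0.547 and rho = 0.667. These lines include KASUMI-1, where BIRC3 passed the filter only through its etoposide libraries. UBA6, which charges the ubiquitin passed on by BIRC6, was lower on average (-0.18, 0.0494) and fell in 3 lines. Mitotic genes had 6 of 12 lower and none higher (median -0.32), the passenger complex partners 2 of 3 lower, and p53 targets 5 of 7 tested higher and none lower (median 0.73).

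The genes most like each member were sought over all genes that could be compared, as a description over 8 to 11 lines. In basal level, BIRC6 was most like SOCS5 (r = 0.915), YIPF4 (0.900) and HEXIM2 (0.880), and YIPF4 (chr2:32277904-32316594) is the protein-coding gene next upstream of BIRC6, 40428 bases away on the same strand. BIRC3 was most like BTN3A3 (0.956), XIAP like GFPT1 (0.920), BIRC2 like the antiviral gene OAS1 (0.937), BIRC5 like SLC16A9 (0.906) and DIABLO like WDR74 (0.951). In the change after etoposide, BIRC3 was nearest to ANKRD12 (0.974), NIN (0.971) and the kinase gene TBK1 (0.953). The BIRC3 changes include KASUMI-1, where the gene passed the filter only through its etoposide libraries. BIRC5 was nearest to NUCKS1 (0.963) and the histone chaperone gene NASP (0.956), and BIRC6 to TRIM35 (0.977), MTOR (0.958) and GSK3B (0.947). BIRC2 was nearest to GABPB2 (0.947), XIAP to CEBPB (0.922) and DIABLO to GNB4, with the lowest of these coefficients (0.820).

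The OCI-AML2 libraries were fitted apart. None of the 5 members tested passed by edgeR, 0 had an unadjusted p below 0.05, and neither DESeq2 nor the exact test called any, where 0.0221% of all genes passed. Log2 changes ran from -0.11 to 0.09. BIRC3 was at 0.142, 0.306 and 0.255 CPM untreated and at 0.189, 0.294 and 0.160 CPM in the discarded etoposide libraries.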

How the data were processed

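RNA-seq libraries of 11 AML cell lines (66 libraries) were analysed from the deposited counts. Per the study's methods, the authors sequenced TruSeq stranded mRNA libraries on a HiSeq 2000, checked reads with FastQC 0.11.5, and aligned and counted them with STAR 2.5.3a (GRCh38.p7, GENCODE 25), and the deposited counts are raw unique reads per gene, not normalized. The files hold a single count column, and which of STAR's strand settings it carries is not given in the sources used here. Of 716 genes lying wholly inside an opposite-strand exon, 470 had reads, which counting without strand would have left ambiguous, so the counts were read as strand-aware. PAR_Y copies (45 identifiers, 0 reads) were left out. Symbols and exon lengths came from GENCODE 44 (56948 identifiers matched).

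Each line was fitted on its 6 libraries with edgeR 4.0.16 (R 4.3.3): TMM scaling, filterByExpr (minimum count 10, total 15), glmQLFit and glmQLFTest, Benjamini-Hochberg adjustment over all genes, threshold 0.05, and 2-fold where stated. The mean over lines was tested with limma 3.58.1 and by exact sign flips, and differences between untreated lines and between the changes with edgeR F tests. Alternatives used DESeq2 1.42.0, the edgeR exact test, RLE and library-size scaling, no filter or a mean of at least 5 CPM, a single fit, a replicate block and left-out libraries. Basal levels entered correlations as log2(1 + CPM), and IC50 values, in μM, as log2(1 + IC50). The IC50 values were taken from the study and used for these correlations and to order the lines. Intervals are exact at 95%. Same-numbered libraries deviated together (every r above 0.1) in MOLM-13, NB-4 and OCI-AML2 only. No libraries within a group were duplicates, and libraries of different groups were not compared in this way. Scripts were tested on simulated data.

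All members, the 3 genes most like each, and up to 4 genes per list with the highest untreated level were named. The members and lists were chosen with earlier results of these data known. Some genes of the lists are not reported here.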

Additional observations from a re-analysis of the deposited data

Results flagged for a closer look

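The change after etoposide differed between the 10 cell lines for 3 genes by the interaction test of edgeR. The adjusted p was 2.07e-05 for BIRC2, 5.13e-10 for BIRC3 and 5.52e-15 for BIRC5. For BIRC3 the fit included KASUMI-1, where the gene passed the filter only through its etoposide libraries. It also included the lines in which BIRC3 had too few reads to be tested alone. Whether the BIRC3 difference holds without these lines was not tested. After etoposide, BIRC5 was far lower in MOLM-13 than in any of the other 9 lines, the gap to the next line being 0.674 of the whole range over 10 lines. This was 1 of 18 checks of that kind, and chance marks about 1 in 20.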

How the results depend on the processing

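Of the 25 calls in single lines, 10 were kept under every alternative in which the pair was tested. These were 6 of BIRC3 (KASUMI-1, which its filter admitted through 1 group, included), BIRC2 in KASUMI-1 and MONO-MAC-6, and BIRC5 in F-36P and MOLM-13. No called change reversed. The 9 lower pairs became 5 in a single fit of 60 libraries, 3 with library size only and 4 when the mean had to reach 5 CPM, and 5 to 8 with libraries left out. Lower pairs above 2-fold went from 0 to 2 without the filter, 2 with the long-gene covariate and 0 to 3 with libraries left out. Of the 58 pairs, 46 were tested with the 5 CPM filter. Uncalled changes turned sign in 7 pairs with library size only, 4 in the single fit, 4 with the covariate and 3 without the filter. They did so in 2 pairs each with RLE, DESeq2 and the 5 CPM filter, 1 with the block and 0 with the exact test. Among those called under some setting were BIRC6 in MONO-MAC-6 (0.0596) and BIRC2 in MV-4-11 (0.0188) with library size only, and BIRC6 in OCI-AML3 (0.0172 with library size only, 0.00018 without the filter, 0.0295 at 5 CPM). With libraries left out, BIRC6 ranged from -0.0865 to 0.35 in NOMO-1 and from -0.24 to 0.25 in OCI-AML3 (0.25 passing at an adjusted p of 0.0231), BIRC2 from -0.0547 to 0.50 in OCI-AML3 and BIRC3 from -0.0222 to 0.42 in THP-1. The causes were not tested.

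The mean over lines with library size only was 0.40 for BIRC2, 0.23 for XIAP and -0.12 for BIRC6. For BIRC6 it was -0.25 without the filter, -0.18 without F-36P and -0.27 to -0.22 with replicates left out. The interaction p of BIRC6 was 3.51e-10 without the filter and 0.0255 to 0.748 with replicates left out, and that of XIAP 0.0393 with RLE, 0.0219 with the block, 0.0305 without F-36P and 0.0241 with DESeq2. The r with IC50 was -0.313 for BIRC2, 0.408 for BIRC5, 0.362 for BIRC6, 0.165 for XIAP and 0.00585 for DIABLO without F-36P. With KASUMI-1 left out as well, it was 0.426 for BIRC3, 0.393 for BIRC5, 0.479 for BIRC6, 0.441 for XIAP and -0.0977 for DIABLO. Spearman's rho was 0.582 for BIRC5 and 0.509 for XIAP, and on the raw IC50 scale r was 0.590 for BIRC5.

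With the replicate block, 15 pairs were higher and 8 lower, 6 and 0 of them above 2-fold. The blocked means were 0.29 for BIRC2, -0.13 for BIRC5, -0.23 for BIRC6, 0.11 for XIAP and 0.05 for DIABLO, and the blocked interaction p was 0.000765 for BIRC2, 1.5e-07 for BIRC3, 2.12e-09 for BIRC5, 0.422 for BIRC6 and 0.881 for DIABLO. In the lines whose same-numbered libraries deviated together, the block changed the call of BIRC2 in NB-4 only. BIRC3 had few reads in MV-4-11, OCI-AML3 and KASUMI-1, and DIABLO in all lines.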
